A study of Mus musculus with 4 samples.

Results

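The keratin genes (symbol Krt and a number) and the keratin-associated protein genes (Krtap) lie in a few dense clusters of the mouse genome, and this account gives the binding of CTCF in and around them in testis. The genes were chosen by symbol, which gave 109 of 21523 protein-coding genes, 53 keratin and 56 Krtap. The peaks were chosen by the measured position of their summit, the point of highest signal. They comprise the 64 summits inside 6 gene clusters and the 53 within 100 kb outside them, 117 of 51871 in the list. Genes of the set less than 200 kb apart form a cluster, and 1 of the 6 is a lone gene.

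The binding of CTCF was read by ChIP-seq, sequencing of the chromatin that an antibody to CTCF pulls down, in testes of F1 mice of a B6 by CAST cross, with 2 immunoprecipitated and 2 input samples. No sample received a treatment that the labels name. The testes were frozen whole and not sorted, so germ cells and somatic cells share each value, and ages and the number of mice per sample were not given in the sources used here. The values come from 1 merged list, so nothing below has a spread between replicates, read depth is unknown, and every comparison is a description without a test.

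Keratins are the intermediate filament proteins of epithelial cells. Each filament pairs an acidic type I keratin with a basic type II keratin. Simple epithelia use Krt8 with Krt18, the basal layer of the epidermis uses Krt5 with Krt14, and the layers above it use Krt1 with Krt10, while hair keratins build the hair shaft. The Krtap proteins fill the matrix between hair keratin filaments, which they crosslink. CTCF is a zinc-finger protein that stops the extrusion of chromatin loops by cohesin and so marks many loop anchors and domain borders. Gene expression was not measured, so the activity of these genes in the sampled testes is not known from the data.

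Few of the genes had a CTCF summit at an end. Within 1 kb of an annotated end, 8 of the 109 genes had a summit (7.34%, exact Clopper-Pearson 95% interval 3.22 to 13.95), beside 39.1% of all protein-coding genes. Because the rule used these positions, the count is a description. The 8 were the keratin genes Krt88, Krt28, Krt81, Krt86, Krt222, Krt19 and Krt10, and 1 Krtap gene, Krtap5-4. Thus 7 of 53 keratin genes (13.2%, interval 5.48 to 25.3) and 1 of 56 Krtap genes (1.79%, interval 0.0452 to 9.55) had such a summit. Krtap genes are short, with a median length of 0.833 kb against 7.07 kb for the keratin genes. Of all protein-coding genes of at most 2 kb, a class that holds all 56 Krtap genes and no keratin gene, 12.9% had a gene-end summit.

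Distance told the same groups apart by degree. The median distance from a gene end to the nearest summit was 17.3 kb over the 109 genes, 9.93 kb over keratin genes and 23.7 kb over Krtap genes. It was 2.29 kb over all protein-coding genes and 38.4 kb over those of at most 2 kb, so the Krtap median was the shorter in that second comparison. Summits lay within 10 kb of 41 of the 109 genes (37.6%, beside 72.4% of all genes) and within 100 kb of 96.3% (beside 93.6%). The shortfall was therefore at short range and had gone by 100 kb.

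**Figure D1:**
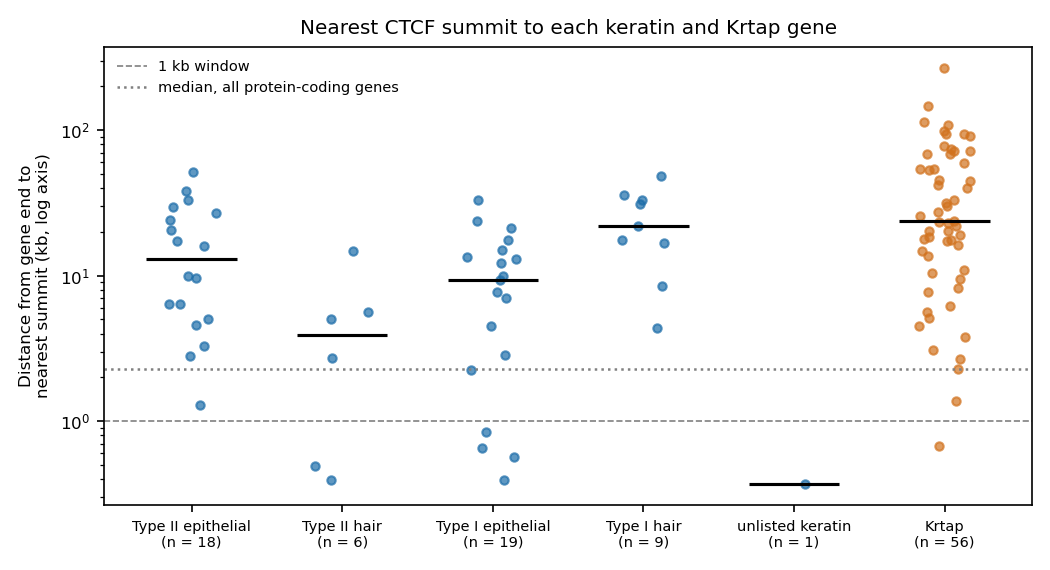
Distance from the nearer annotated end of each of the 109 genes to the closest CTCF summit (kb, log axis), by keratin class and for Krtap genes. Each point is a gene and each black bar a group median; the dotted line is the median of all protein-coding genes (2.29 kb) and the dashed line the 1 kb window, below which 8 genes fall.

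Among the type I epithelial keratins, 4 of 19 had a gene-end summit, Krt28, Krt222, Krt19 and Krt10. The highest of these, with a fold enrichment of 13.4 and a −log10 q of 54.8, lay inside Krt19, a keratin of simple epithelia, 650 bp from its upper end (chromosome 11, 100140810 to 100145926). At Krt10, the partner of Krt1 in differentiating epidermis, a summit of fold 13.1 lay inside the gene, 843 bp from its transcription end (chromosome 11, 99385254 to 99397449). Krt28, a keratin of the inner root sheath of the hair follicle, had a summit of fold 11.8 and the highest −log10 q of the 8, 89.2. It lay outside the gene, 392 bp past the transcription end. Krt222 had a weak one, of fold 4.87 at 568 bp. For Krt10 and Krt28, where the promoter table gives the strand, the summit was thus at the end of transcription and not at its start. Krt19 and Krt222 have no strand there. Their summits lay at the upper end, and whether that is the start or the end of transcription is unknown.

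Among the 6 type II hair keratins, Krt81 and Krt86 had a gene-end summit. The Krt86 summit had a fold of 14.0, the highest of the 8 genes, 494 bp inside the upper end (chromosome 15, 101473478 to 101479983). The Krt81 summit had a fold of 7.49, 396 bp inside the lower end (chromosome 15, 101459061 to 101463765). Krt88, which neither keratin list held, had a summit of fold 11.6 at 369 bp inside its upper end. Hair keratin genes are close copies of each other, and how reads that match several of them were placed was not given in the sources used here, so the split of signal between Krt81, Krt86 and Krt88 is uncertain. Neither the 18 type II epithelial keratins (0 of 18, exact 95% interval up to 18.5%) nor the 9 type I hair keratins (0 of 9, up to 33.6%) had a gene-end summit.

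Krtap5-4, on chromosome 7, was the lone Krtap gene with a gene-end summit. Its fold was 3.74 and its −log10 q 4.93, the lowest of the 8, and it lay 677 bp before the transcription start. The next genes, just outside the 1 kb window, were Krt8 at 1.29 kb with a fold of 10.2 and Krtap14 at 1.38 kb with a fold of 4.89. The Krt8 summit lies inside the gene, downstream of the start. Over the 8 gene-end summits the median fold was 11.7, beside 5.54 for all summits at protein-coding gene ends and 6.82 for all peaks, and 5 of the 8 reached a fold of 10 (62.5%, beside 12.8% of all gene-end peaks).

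Transcription starts could be examined for 87 of the genes, through 88 promoters. The 22 genes without a promoter entry include Krt222, Krt19, Krt88, Krt81 and Krt86, most of the genes with a gene-end summit. Whether those summits lie near a start is unknown, and the promoter shares given here leave those genes out. Within 1 kb of the start, 1 of 88 promoters had a summit (1.14%), that of Krtap5-4, beside 35.4% of promoters of protein-coding genes. None of the 88 held a summit in its 300 bases, 250 before the start and 50 after, which allows a share of up to 3.41% (3 of 88, the limit taken for a count of 0 promoters); of all promoters 17.6% did. Base composition differed between these promoters, all coding promoters and the coding promoters that held a summit. The 88 promoters had a median of 3 CpG dinucleotides and 44.5% G + C. All coding promoters had 13 and 56.7%, and those that held a summit had 25 and 64.0%. Among promoters with at most 3 CpG, 3.33% of all coding promoters had a summit within 1 kb, close to the 1 of 50 of the keratin and Krtap promoters in that class (2%). Among promoters with 4 to 10 CpG the background was 16.5%, and 0 of 35 here had a summit, which by the same limit allows up to 8.57%. The part of base composition in the low count was not tested further.

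**Figure D2:**
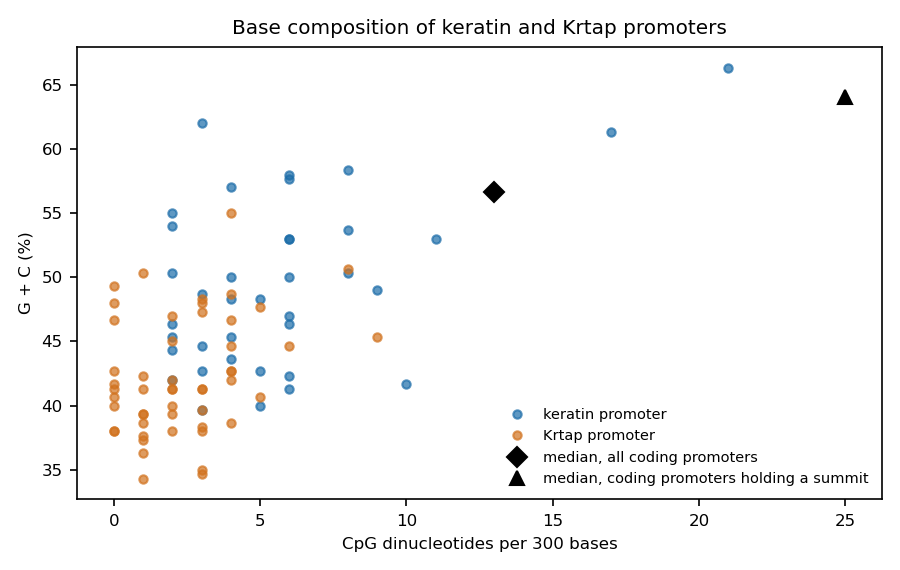
CpG dinucleotides per 300 bases and percent G + C of the 88 keratin and Krtap promoters, each point a promoter. The diamond marks the medians of all coding promoters (13 CpG, 56.7%) and the triangle those of coding promoters that hold a summit (25 CpG, 64.0%); all but 3 of the points lie at or below 10 CpG.

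The promoter sequences shared features that the choice of genes did not use. The letters TATAAA, the TATA box, stood on either strand in 61 of the 88 (69.3%), beside 12.7% of all coding promoters. In the last 40 bases before the start, on the strand of the gene, they stood in 45 (51.1%), beside 2.87%. Krtap promoters had them there in 31 of 51 and keratin promoters in 14 of 37. Of all coding promoters with such a TATA box, 12.9% had a summit within 1 kb of the start, and none of the 45 did, which by that limit allows up to 6.67%. A core of the CTCF motif (CC, any 3 bases, AG, any 2 bases, GGC, searched on both strands) occurred in 1 of the 88, that of Krt18, beside 9.98% of all coding promoters and 22.4% of those that hold a summit. A match or its absence describes these letters only.

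The 250 bases before the start are shown for 5 genes (RefSeq, GRCm38.p6, gene strand, 5′ to 3′), with matches to either motif in capitals. They are Krtap5-4, with the lone summit near a start among the promoters examined (chr7:142303252-142303501, plus strand), and the pair Krt8 (chr15:102004343-102004592, minus strand) and Krt18 (chr15:102027966-102028215, plus strand). The other two are the Krtap genes farthest from any summit on chromosome 11, Krtap4-6 (chr11:99665961-99666210, minus strand), and on chromosome 16, Krtap20-2 (chr16:89205611-89205860, plus strand).
Krtap5-4: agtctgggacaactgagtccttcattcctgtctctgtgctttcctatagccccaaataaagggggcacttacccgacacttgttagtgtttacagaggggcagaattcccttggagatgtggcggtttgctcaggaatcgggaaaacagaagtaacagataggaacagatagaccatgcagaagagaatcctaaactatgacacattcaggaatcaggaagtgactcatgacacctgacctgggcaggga
Krt8: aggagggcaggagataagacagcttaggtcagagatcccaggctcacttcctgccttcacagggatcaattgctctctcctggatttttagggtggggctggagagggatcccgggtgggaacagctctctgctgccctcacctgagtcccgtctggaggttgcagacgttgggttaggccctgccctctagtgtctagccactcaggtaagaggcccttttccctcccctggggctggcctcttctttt
Krt18: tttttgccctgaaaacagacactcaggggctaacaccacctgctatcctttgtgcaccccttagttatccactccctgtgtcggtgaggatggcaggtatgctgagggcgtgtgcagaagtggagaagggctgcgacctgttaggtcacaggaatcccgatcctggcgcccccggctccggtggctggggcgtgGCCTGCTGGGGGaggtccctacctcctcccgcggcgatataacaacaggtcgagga
Krtap4-6: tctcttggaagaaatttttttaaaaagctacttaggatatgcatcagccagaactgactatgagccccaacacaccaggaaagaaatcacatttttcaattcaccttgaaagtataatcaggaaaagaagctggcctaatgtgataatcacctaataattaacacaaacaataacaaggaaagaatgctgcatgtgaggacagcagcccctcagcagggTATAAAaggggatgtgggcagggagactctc
Krtap20-2: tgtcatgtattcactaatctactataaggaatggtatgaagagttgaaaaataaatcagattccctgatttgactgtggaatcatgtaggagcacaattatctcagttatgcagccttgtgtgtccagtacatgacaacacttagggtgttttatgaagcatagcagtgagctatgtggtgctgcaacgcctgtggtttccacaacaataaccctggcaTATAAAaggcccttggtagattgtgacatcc
The capitals in Krt18 are the CTCF core, read on the opposite strand, and its nearest summit to the start lay 9.93 kb away. In Krtap4-6 and Krtap20-2 the capitals are the TATA box, which begins 31 bases before the start in each. Krtap5-4 and Krt8 held neither motif in these bases.

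Inside the clusters as a whole, summits were about as dense as elsewhere. The 6 clusters span 2.93 Mb and held 21.9 summits per Mb, beside 20.1 per Mb over the autosomes and X. Their genes are packed far more tightly, at 60.4 protein-coding genes per Mb against 8.37, so there were 36.2 summits per 100 protein-coding genes against 239.9. Counted by summit and not by gene, the share at gene ends was near that of the genome. With genes packed more tightly, more of the cluster sequence lies near an end. The share of sequence near ends was not measured, so these shares do not compare binding per length. Within 1 kb of an end of any protein-coding gene lay 11 of the 64 inside summits (17.2%), close to the 16.3% of summits on the autosomes and X, and 8 of the 64 were that near a keratin or Krtap gene. Over 5 kb from any such end lay 30 of the 64 (46.9%, beside 65.5%). Summits inside such genes numbered 14 (21.9%), where these genes fill 16.9% of the cluster length. They fell in 9 genes, all of them keratin genes, with 5 in Krt78, 2 in Krt28 and 1 each in Krt10, Krt19, Krt88, Krt81, Krt86, Krt75 and Krt8. The 5 in Krt78 lie upstream of that gene's start in the promoter table. Both the 14 and the 16.9% therefore rest on its long annotated span, and no excess inside genes can be read from them. The flanks held 44.2 summits per Mb, above the clusters, though cluster by cluster this varied.

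**Figure D3:**
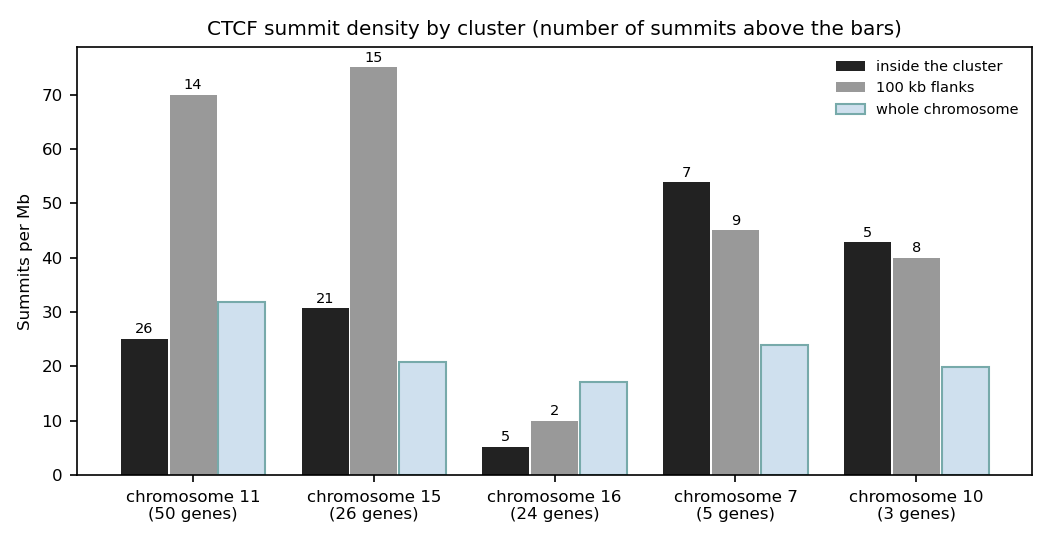
CTCF summits per Mb inside each cluster of more than 1 gene, in its 100 kb flanks and over its whole chromosome, with the number of summits above the bars. The flanks exceed the cluster on chromosomes 11, 15 and 16 and fall below it on chromosomes 7 and 10.

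The chromosome 11 cluster (99232761 to 100269951) holds 50 of the genes, 27 keratins and 23 Krtap genes, and 26 summits. That is 25.1 per Mb, below the 31.8 of this chromosome. The summits were unevenly spread. The 12 keratin genes from Krt222 to Krt40 span 310 kb with 16 summits, or 51.5 per Mb. The 23 Krtap genes from Krtap3-3 to Krtap17-1 span 444 kb with 3 summits, or 6.76 per Mb, and the 15 keratin genes from Krt33a to Krt42 span 259 kb with 4, or 15.5 per Mb. Another 3 sat together in the 17.2 kb between Krtap17-1 and Krt33a, where Krtap genes give way to hair keratins, with folds of 9.18, 2.45 and 9.84. The second of these was weak, with a −log10 q of 1.81. The hair keratins Krt39 and Krt40 adjoin the other side of the Krtap block, and their nearest summits lay 48.0 and 31.1 kb away.

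The 3 summits of the Krtap block had folds of 7.89, nearest to Krtap1-5, 4.98, nearest to Krtap4-16, and 8.25, nearest to Krtap29-1. Between the first pair lay the longest stretch without a summit in this cluster, 279.9 kb (99574324 to 99854272), with 13 Krtap genes and 24 protein-coding genes in all. At least as long were 2.72% of the spacings between neighbouring summits genome-wide. Krtap4-6 lay farthest from a summit, at 90.7 kb. In the keratin block below, the highest summits were those at Krt10 and Krt28 and one of fold 12.4 at 99256398, 12.3 kb from Krt222.

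The border below this cluster had its nearest summit 2.19 kb away, with a fold of 4.27. That above had it 12.3 kb away, with a fold of 6.57. The flank below held 4 summits and that above 10, with a highest fold of 10.97 nearest to Eif1, which encodes a translation initiation factor. Krt14, the basal epidermal keratin, and Krt9, the keratin of palm and sole skin, shared a nearest summit of fold 7.14 at 2.86 and 7.06 kb, and Krt16 and Krt17, induced in wounded skin, had none closer than 33.3 and 21.2 kb.

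**Figure D4:**
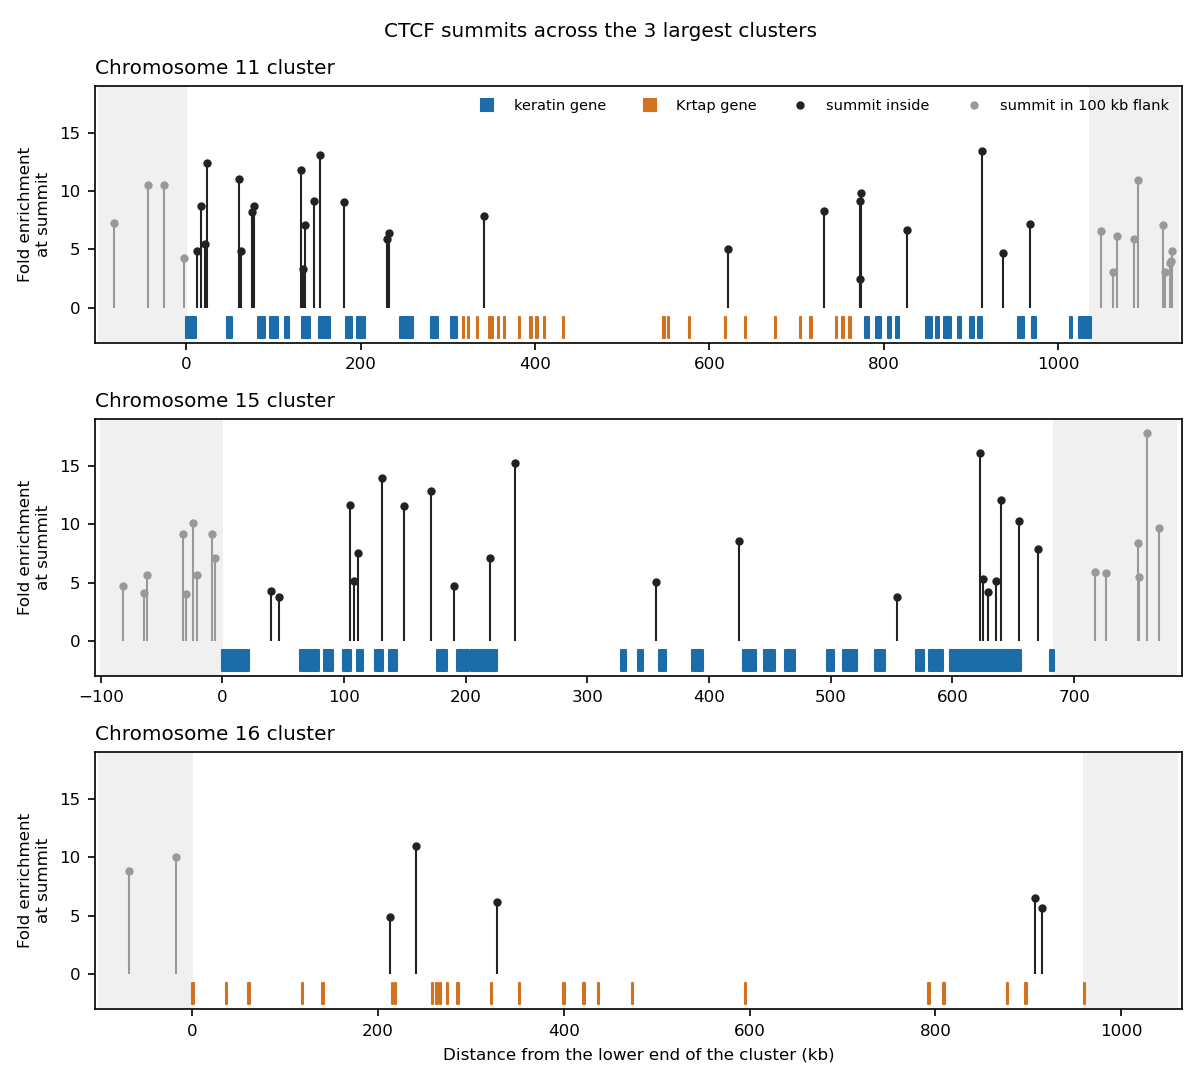
Maps of the clusters on chromosomes 11, 15 and 16, with distance from the lower end of each cluster (kb) on the horizontal axis and fold enrichment at each CTCF summit as stem height. Boxes are genes (blue keratin, orange Krtap) and shaded bands the 100 kb flanks; the orange stretch of chromosome 11 holds 3 summits and the chromosome 16 cluster 5.

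The chromosome 15 cluster (101348315 to 102032026) holds 26 keratin genes and no Krtap gene. It had 21 summits, or 30.7 per Mb against 20.9 for the chromosome, and 8 of the 21 reached a fold of 10 (38.1%, beside 19.6% of all peaks). Summits gathered at its sides. From Krt80 to Krt75, a stretch of 226 kb with the hair keratins, there were 10 (44.3 per Mb), and a summit of fold 15.2 stood alone at 101588405 in the 102 kb between Krt75 and Krt6b. From Krt6b to Krt18 there were 10 in 356 kb (28.1 per Mb), of which 5 lay within the annotated span of Krt78.

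Those 5 summits had folds of 16.1, 5.31, 4.16, 5.16 and 12.1, at 101970766, 101973861, 101977422, 101984131 and 101988281. The first is the highest inside any of the clusters, above 98.5% of all peaks in the list. Krt78 is annotated over 50.6 kb, but its start in the promoter table is at 101954287 on the minus strand. All 5 lie 16.5 to 34.0 kb upstream of that start, on the side of Krt8. With the summits in Krt8 (10.2) and between Krt8 and Krt18 (7.88, at 102018288), 7 of the cluster's 21 summits lay between the Krt78 start and Krt18.

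The middle of the type II genes was sparse. The longest stretch without a summit, 129.7 kb (101772870 to 101902576), contained 6 of the genes, and Krt1 lay farthest from a summit, at 51.8 kb. Krt5 lay 2.79 kb from a summit of fold 5.005, Krt2 lay 37.8 kb from one and Krt77 lay 32.9 kb. At the borders the nearest summits were 6.35 kb below Krt80 (fold 7.07) and 33.8 kb above Krt18 (fold 5.91). The flanks held 9 and 6 summits, and the highest, 17.9, lay inside Tns2, a focal adhesion gene, at 102108182.

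The chromosome 16 cluster (88610709 to 89571183) holds 24 Krtap genes and 34 other protein-coding genes. Of the clusters of more than 1 gene it was the sparsest, with 5 summits in 960 kb, or 5.21 per Mb against 17.2 for the chromosome. Its summits had folds of 4.89, 10.98, 6.14, 6.52 and 5.64, and none lay within 1 kb of a gene of the set. Between the third and the fourth lay 579 kb without a summit (88938453 to 89517850), with 39 protein-coding genes, 10 of them Krtap genes. Spacings at least that long make up 0.889% of those genome-wide, 459 of 51610, and 18 of 1629 on chromosome 16.

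Distances within this cluster ran from 1.38 kb at Krtap14 to 267 kb at Krtap20-2, the farthest of all 109 genes from a summit. The 4 Krtap6 genes lay 93.3 to 146 kb away and the 6 Krtap19 genes 6.19 to 42.0 kb. Below the cluster the nearest summit stood 17.7 kb away with a fold of 10.01. Above it there was none within 100 kb, and the nearest stood 130 kb away with a fold of 7.76. The cluster rests on a gap of 196.6 kb between 2 neighbouring Krtap genes, just under the 200 kb that would divide it.

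The small Krtap clusters on chromosomes 7 and 10 were the densest. On chromosome 7 (142174532 to 142304503), 5 Krtap5 genes shared 130 kb with 7 summits, or 53.9 per Mb against 23.9 for the chromosome. The highest fold was 13.0, 25.8 kb from Krtap5-5, and Krtap5-3 lay farthest from a summit, at 31.3 kb within a stretch of 75.5 kb that had none. On chromosome 10 (77720586 to 77837251), Krtap12-1, Krtap10-4 and Krtap10-10 shared 117 kb with 5 summits, or 42.9 per Mb against 19.95. The whole cluster lies inside Tspear, a gene linked to hearing and to hair and tooth development, so all 5 fell in that gene by position alone. The 5 summits had folds of 4.77 to 8.37, and Krtap10-10 was farthest from a summit, at 20.3 kb. The longest stretch without one there was 63.2 kb. Their borders had the nearest summits 4.48 and 12.2 kb away on chromosome 7 and 10.6 and 27.6 kb away on chromosome 10. Krtap28-13, alone on chromosome 1 (83060930 to 83061921), had no summit inside but one of fold 15.2 at 3.10 kb past its transcription end and 4 in all within 100 kb on that side, against 1 on the other.

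Summits inside the clusters were of ordinary strength by fold and above it by −log10 q. Their median fold was 7.06, beside 6.82 for all peaks, and 15 of 64 reached a fold of 10 (23.4%, beside 19.6%). The median −log10 q was 45.0, beside 29.5, and the median width 642 bp, beside 529 bp. By cluster, the median fold was 8.05 on chromosome 11, 7.49 on chromosome 15 and 6.14 on chromosome 16. Flank summits had a median fold of 6.15 and a median −log10 q of 39.3, so there too the 2 measures differed in their place against all peaks. The spacing of neighbours inside a cluster had a median of 15.2 kb, beside 18.1 kb in the genome, and 18 of 59 spacings were under 5 kb (30.5%, beside 20.1%). Spacings under 5 kb and long empty stretches occurred together in the chromosome 11 and 15 clusters. On chromosome 16 the closest neighbours, at 89517850 and 89525069, were over 5 kb apart.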

How the data were processed

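The samples are 2 CTCF immunoprecipitations and 2 inputs from whole testes. The values used came from 1 peak list described as merged. Its peak names also carry the word bio2, so whether 1 or both immunoprecipitations entered it was not settled. BWA 0.7.12, MACS2 2.2.7 and mm10 are listed, per the submitters' processing notes, without their roles. For each peak the values used are the deposited fold enrichment (a ratio over background at the summit) and the deposited −log10 q. The deposited score, close to 10 times −log10 q, was left aside. With 1 list of unknown read depth there is no error between samples, and no test was run.

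A summit is column 2 plus column 10 of the list, written 1-based. Gene positions came from the RefSeq table of GRCm38.p6, whose chromosomes are those of mm10. Of the protein-coding genes, those of the 19 autosomes and X that start at 3 Mb or beyond were kept, 21523 in all. Strand and the 300 promoter bases (250 before, 50 after a start) came from the RefSeq promoter table of the same build, matched by gene ID. Of the 109 genes, 87 matched. Sequence at summits away from promoters was not analysed here.

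The members and lists were chosen with earlier results of these data known. Named genes are those with a summit within 1 kb of an end and, per cluster, the gene farthest from a summit, the highest summit inside, the nearest summit beyond each border and the longest stretch without a summit. Other genes were named for their known roles, with the values in view. The blocks of the chromosome 11 and 15 clusters, the share of summits near gene ends, the TATA and CpG counts and the backgrounds of short genes and of promoter classes were added after the data were seen. Shares of genes carry exact Clopper-Pearson 95% intervals, which cover counting error only and treat neighbouring genes as independent. For a count of 0 promoters the limit is 3 of the total instead. Counting steps were tested on simulated summits. Python 3.11.15, pandas 2.3.3, numpy 2.4.6, scipy 1.17.1 and matplotlib 3.10.9 were used.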

Additional observations from a re-analysis of the deposited data

How the results depend on the processing

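Of 26 alternatives, 21 left a value within 1.5 times of that reported. The genes with a gene-end summit numbered 4 with a window of 0.5 kb, where the share of all genes also fell, to 31.4%. The upper part of the list, split at its median −log10 q, left 38 summits inside the clusters and 31 in the flanks, fewer by construction, and the density inside over that of the genome went from 1.09 to 1.28. The share of promoters with a summit near the start was 0% at 0.5 kb and 3.41% at 2.5 kb, which is 1 promoter against 0 or 3. Median fold in the flanks over that of all peaks was 0.901, and 1.33 with −log10 q in its place, so its side of 1 depends on the measure. For summits inside, that ratio was 1.04 by fold, 1.53 by −log10 q and 0.960 by fold within that upper part. Joining genes at gaps under 100 kb gave 11 clusters with 58 summits inside, and a limit of 0.5 Mb left 6 clusters. No paired analysis was possible because the list gives 1 value per peak and none per sample, and for the same reason no replicate could be left out. Sites too weak for the list may lie in the empty stretches, and without read counts their number is unknown. How reads that match several places were placed was not given either. Sites in repeated sequence, Krtap gene copies included, may thus be missing from the list whatever their strength, which was not tested.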

Other observations

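The clusters also hold 68 protein-coding genes whose symbols carry neither name, nearly all with provisional Gm or Rik symbols. A summit lay within 1 kb of an end of 3 of these (4.41%), Gm46022 and Gm10013 in the chromosome 7 cluster and Gm2696 in that on chromosome 10, with folds of 13.0, 3.87 and 6.77. That share was 39.1% over all protein-coding genes and 12.9% over those of at most 2 kb. None of the 15 such genes in the chromosome 11 cluster or the 34 in that on chromosome 16 had one. The Gm10013 summit lay as far from its gene as the Krtap5-4 summit from its own. Whether both sites share sequence was not tested. Among the 35 protein-coding genes that reach into the 100 kb flanks, 9 had a gene-end summit (25.7%, below the 39.1% of all protein-coding genes). They included Smarce1, a chromatin remodelling subunit gene 0.445 kb from a summit of fold 4.27, and the translation initiation factor genes Eif1 and Eif4b, 0.077 and 0.558 kb from summits of fold 5.89 and 5.80. Jup, which encodes the junction protein plakoglobin, and the autophagy gene Atg101 had summits of fold 6.31 and 4.10. Only the lower end of Jup reaches into the flank, and its summit, at 100397512, lay beyond the 100 kb. Their names were chosen with the values in view.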
